A study of Mus musculus with 8 samples.

Results

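The lysosome is the acidic compartment in which cells break down material they have taken up, and its genes were examined here in CD11c positive mouse cells cultured with or without a modified lipoprotein. The 51 genes were chosen by name and function: 22 hydrolases, 3 activator or companion proteins, 7 membrane proteins, 16 subunits and accessory proteins of the proton pump, and the 3 TFE transcription factors. Of these, 48 of the 11756 listed genes matched, and Manba, Ctns and Tfeb were not analysed here. Values of at least 10 in at least 4 libraries, the condition for testing, were reached by 45 of the 48, and by 10091 genes in all. Arsa, Gaa and Naglu fell short of it.

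The study sequenced 8 libraries of bone marrow cells from C57BL/6 mice, sorted for CD11c, an integrin of dendritic cells and some macrophages. In 4 libraries the cells received acetylated low density lipoprotein (acLDL) on culture day 6 for 24 h, and in the other 4 libraries they were cultured without it. Both groups share strain, tissue, sort and culture. The sources used here give neither the age of the mice nor whether replicates came from separate animals or cultures. The p-values therefore describe variation among 8 libraries, part of which may be technical.

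As background, acLDL enters cells through scavenger receptors and is delivered to lysosomes, where hydrolases release its cholesterol and other lipids. These enzymes need the acid pH made by the vacuolar proton pump (V-ATPase), which has a membrane sector, V0, that carries protons and a cytosolic sector, V1, that splits ATP. Tfeb, Tfe3 and Mitf are related factors that bind E-box sequences near many lysosomal genes and are known to raise their transcription when mTORC1 at the lysosome is less active.

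Values below are the authors' normalized signal per gene and library, and log2 changes are the acLDL mean minus the control mean on log2(value + 5) from limma. Library totals ran from 3917426 to 4385051. The libraries differed along an axis that the groups do not fully explain. A short-transcript index, the median log2 deviation of genes (lysosomal ones left out) with no coding transcript of 1000 nt or more, was 1.19, -1.40, -2.30 and -0.26 in acLDL libraries 1 to 4. It was 0.23, 1.07, 1.16 and 0.76 in control libraries 1 to 4. In this index acLDL library 1 lay beside the controls, acLDL libraries 2 and 3 lay far below them, and control library 1 was the lowest control. The main values are from all libraries, and values without acLDL library 1, without acLDL libraries 2 and 3, or with the index as a covariate stand beside many of them.

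All 9 dendritic cell markers of the list were found, and their summed level was 42191 to 51005 with acLDL and 36455 to 40204 in the control libraries. That sum was carried by H2-Eb1 (23144 to 44279 with acLDL), while 6 of the 8 dendritic markers tested had a lower mean with acLDL, with a median log2 change of -2.14 (0.09 with the covariate). Itgax, the gene of CD11c, was at 189, 10.004, 0 and 42.7 with acLDL and at 81.5, 182, 195 and 172 without it, so the sorting marker was near or at the floor in acLDL libraries 2 and 3. All 8 macrophage markers were found, with sums of 8252 to 12614 and 7154 to 9331, carried by Csf1r, while 5 of the 8 had a lower mean and the median was -1.35 (-0.01 with the covariate). Granulocyte markers (6 of 8 found) summed to 473 to 10803 and 5088 to 12700, osteoclast markers (5 of 7) to 924 to 1233 and 689 to 898, and lymphocyte markers (2 of 6) to 29.4 to 76.8 and 16.6 to 31.4. Medians of the tested markers were -2.18 for 6 granulocyte, 0.54 for 4 osteoclast and 0.73 for 2 lymphocyte genes. With the covariate, log2 changes ran from -0.47 (Mpo) to 0.15 (S100a8) for the granulocyte genes. They ran from -0.22 (Dcstamp) to 0.30 (Nfatc1) for the osteoclast genes, and were 0.84 (Cd79a) and 1.0 (Ms4a1) for the lymphocyte genes. The osteoclast marker Ctsk, too low to be tested, was at 0 in acLDL libraries 2, 3 and 4 and in control library 1. The tested osteoclast markers Ocstamp, Nfatc1 and Mmp9 had higher means with acLDL (log2 changes 0.58, 0.70 and 0.49), and Dcstamp had a lower one (-1.63). In bulk libraries, fewer cells of a type and less RNA per cell cannot be told apart, and the part of other cell types in the results below was not tested.

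No lysosomal gene passed limma's threshold (Benjamini-Hochberg adjusted p under 0.05 over all 10091 genes), against 0.0% of all genes, and the smallest adjusted p among the 45 was 0.298. Mean log2 values were lower with acLDL for 30 genes and higher for 15, with a median log2 change of -0.32, against -0.13 over all genes. At an unadjusted p under 0.05 there were 14 lysosomal genes, 4 higher and 10 lower, against 16.4% of all genes (7.42% higher and 8.93% lower). The ranges of both groups overlapped for all 45, against 5.64% of all genes without overlap. The roles differed in their medians, which were -0.17 for 18 hydrolases, 0.06 for the 3 activators and companions, -1.21 for 6 membrane proteins, -0.70 for 16 proton pump genes and -0.55 for the 2 TFE factors tested. With the index as a covariate these became -0.04, -0.07, -0.33, -0.06 and -0.39. The difference between roles was not tested. Further genes of the pathway, given below, had the reverse order, with medians of -1.02 for 14 hydrolases and 0.13 for 16 membrane proteins. Quantile normalization moved the median of all genes from -0.13 to 0.15 and gave role medians of -0.03, -0.09, -0.73, -0.71 and -0.23, so the sign of the activator median depends on the setting.

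That count rested on acLDL library 1. Without it, 21 of the 45 passed limma's threshold, 5 higher and 16 lower, against 21.7% of all genes (7.28% higher and 14.4% lower). The groups left in that fit did not overlap in the short-transcript index (-2.30 to -0.26 with acLDL and 0.23 to 1.16 without). Group and index therefore cannot be told apart there. The 5 higher genes were Grn, Atp6ap2, Glb1, Sgsh and Fuca1. The 16 lower ones were Psap, Lamp1, Laptm5, 4 hydrolases and 9 genes of the proton pump. When limma weighted libraries by their fit (array weights), 20 passed, against 19.4% of all genes, and 16 of them were among the 21. In acLDL library 1 itself, 31 of the 45 lay within the control range, or 68.9%, against 68.2% of all genes. In acLDL libraries 2, 3 and 4, 4 genes lay above every control (14.0% of all genes did) and 18 below every control (18.9% of all genes did). Without acLDL libraries 2 and 3, limma's smallest adjusted p among the lysosomal genes was 0.994, and the median was -0.21. In that fit 33 of the 45 had a lower mean and 12 a higher one. Only acLDL libraries 1 and 4 were left beside the controls, so a large p there does not show that a difference is absent.

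**Figure D1:**
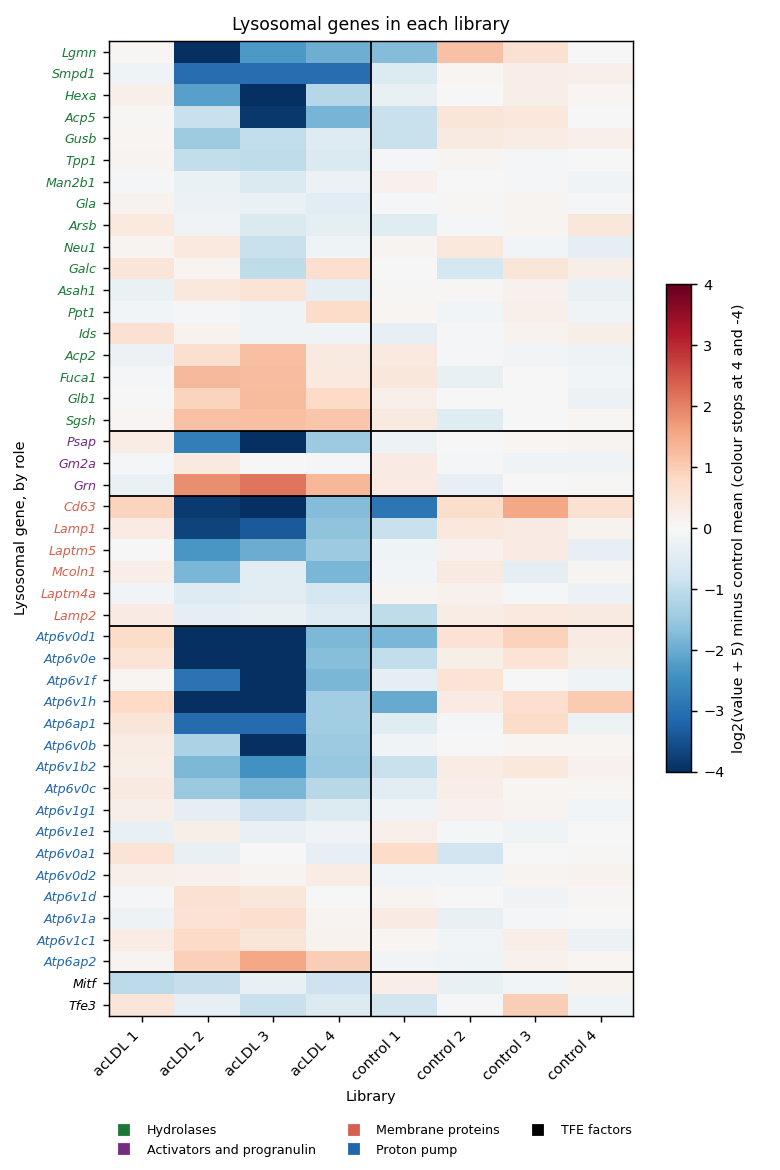
Rows are the 45 tested lysosomal genes, grouped by role and ordered by fold change; columns are the 8 libraries. Colour gives log2(value + 5) minus the mean of the 4 controls, with the scale ending at 4 and -4. The strongest blue and red lie in acLDL libraries 2 and 3, while acLDL library 1 is pale like the controls, and control library 1 is blue for some of the same genes.

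Of the TFE factors, Mitf and Tfe3 were tested. Mitf, known as the factor of melanocytes and osteoclasts (chromosome 6, 97807052 to 98021349, plus strand, GRCm38), was at 48.0, 52.5, 85.0 and 57.0 with acLDL and at 126, 83.6, 97.5 and 117 without it. Only acLDL library 3 reached into the control range, just above control library 2. The means were 60.6 ± 16.7 (SD, n = 4) and 106 ± 19.2, with a log2 change of -0.77 (SE 0.27, limma's adjusted p = 0.298). With the index as a covariate its log2 change was -1.08 (unadjusted p = 0.0048, limma's adjusted p = 0.945), and without acLDL libraries 2 and 3 it was -0.94. After quantile normalization it was -0.51. Tfe3 was at 78.6, 43.4, 27.5 and 36.3 with acLDL and at 31.3, 51.9, 115 and 48.3 without it, so the groups lay across each other. Its log2 change was -0.32 (SE 0.45, limma's adjusted p = 0.678), and 0.31 with the covariate.

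TFE factors bind the E-box CACGTG, often with a T before it, in promoters of the network they control. RefSeq promoter windows (GRCm38.p6, 250 bases before to 50 after a gene's start) were at hand for 45 of the 51 genes, as 57 windows. TCACGTG, read on both strands (CACGTGA on the other), was found in 13 windows of 13 genes, or 22.8%, against 3.77% of 32851 windows of all genes. Each of the 13 windows with CACGTG, found in 7.15% of all windows, also held TCACGTG. The palindrome TCACGTGA was in 5 of the 57 (8.77%) and in 0.974% of all windows. A longer palindrome, with G before it and C after it, was in 0 of the 57 and in 0.326% of all windows. At so low a rate, 57 windows cannot show whether the longer form is rarer in them. Of the genes with TCACGTG, 10 were tested, with 3 higher and 7 lower means and a median log2 change of -1.28. The 29 tested genes with a window and no match had 9 higher and 20 lower means and a median of -0.27. With the covariate these medians were -0.12 and -0.05, and without acLDL libraries 2 and 3 they were -0.55 and -0.13. The windows shown are of 2 genes with higher means (Glb1 and Sgsh) and 2 with lower means (Lamp1 and Atp6v0e), chosen by these directions. Limma's adjusted p was 0.298 for each of them. With the covariate their log2 changes were 0.25, 0.39, -0.32 and -0.21, in that order. Whether a match goes with the direction of change was not tested. The windows are printed 5′ to 3′ on the gene's strand, with every TCACGTG or CACGTGA in capitals.
Glb1, chr9:114400828-114401127, plus strand: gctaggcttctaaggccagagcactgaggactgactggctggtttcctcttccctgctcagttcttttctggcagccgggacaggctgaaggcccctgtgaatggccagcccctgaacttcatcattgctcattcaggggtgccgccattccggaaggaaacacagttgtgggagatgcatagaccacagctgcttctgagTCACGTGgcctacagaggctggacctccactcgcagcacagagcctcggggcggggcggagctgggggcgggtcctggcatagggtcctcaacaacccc
Sgsh, chr11:119355461-119355760, minus strand: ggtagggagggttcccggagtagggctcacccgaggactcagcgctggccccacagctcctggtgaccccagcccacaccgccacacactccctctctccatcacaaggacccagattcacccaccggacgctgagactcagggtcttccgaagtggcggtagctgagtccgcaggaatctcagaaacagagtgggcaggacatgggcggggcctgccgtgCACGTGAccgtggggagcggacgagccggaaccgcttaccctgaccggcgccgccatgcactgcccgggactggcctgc
Lamp1, chr8:13158911-13159210, plus strand: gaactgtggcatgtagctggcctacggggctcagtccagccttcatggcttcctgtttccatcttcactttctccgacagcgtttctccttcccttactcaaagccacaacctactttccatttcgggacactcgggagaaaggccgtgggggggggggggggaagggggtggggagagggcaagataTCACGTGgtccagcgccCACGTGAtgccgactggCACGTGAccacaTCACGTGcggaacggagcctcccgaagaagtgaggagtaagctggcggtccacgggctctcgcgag
Atp6v0e, chr17:26676146-26676445, plus strand: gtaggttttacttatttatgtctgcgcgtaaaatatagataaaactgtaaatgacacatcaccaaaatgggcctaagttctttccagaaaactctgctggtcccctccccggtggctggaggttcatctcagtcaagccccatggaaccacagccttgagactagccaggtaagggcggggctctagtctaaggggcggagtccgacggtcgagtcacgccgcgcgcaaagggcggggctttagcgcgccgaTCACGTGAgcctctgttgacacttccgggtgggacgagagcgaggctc
Glb1 and Sgsh each hold 1 match, starting at base 202 and base 222 of the window. Lamp1 holds 4, starting at bases 189, 206, 223 and 235, all within the last stretch before the start site. In Atp6v0e 2 matches overlap in the palindrome TCACGTGA, starting at bases 253 and 254, just after the start site. A match describes the letters of a window and is neither a bound site nor a cause.

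Among the hydrolases, 8 of 18 had a higher mean with acLDL and 10 a lower one. Smpd1, the acid sphingomyelinase, had the smallest p of the role (chromosome 7, 105554360 to 105558389, plus strand). It was at 31.1 in acLDL library 1 and listed at 0 in acLDL libraries 2, 3 and 4, against 23.1, 38.2, 43.7 and 42.3 without it. Its log2 change was -2.32 (SE 0.70, limma's adjusted p = 0.298), -1.14 with the covariate and -1.61 without acLDL libraries 2 and 3. A listed 0 may stand for a low estimate, since no value lies between 0 and 5 in the table. Zeros were also unevenly spread over all 11756 genes. In acLDL libraries 1 to 4, 820, 2178, 2574 and 1310 genes were at 0. Control libraries 1 to 4 had 1406, 1340, 662 and 1065 genes at 0.

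Glb1, the lysosomal beta-galactosidase, was at 734, 1381, 1759.9 and 1287 with acLDL and at 847, 751, 743 and 622 without it. Those of 3 acLDL libraries lay above every control, and that of library 1 lay among them. The log2 change was 0.74 (SE 0.27, limma's adjusted p = 0.298), and 0.25 with the covariate. Sgsh, the sulfamidase that degrades heparan sulfate, was at 59.1, 132, 136 and 126 with acLDL and at 72.5, 38.5, 56.8 and 59.4 without it, with the same layout. Its log2 change was 0.90 (SE 0.34), and 0.39 with the covariate. Fuca1, which removes fucose, was at 576, 1475, 1437 and 798 against 826, 489, 593 and 553, and acLDL library 4 lay below control library 1.

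Hexa, the alpha subunit of beta-hexosaminidase, went the other way in the same libraries, at 1445, 276, 37.5 and 566 with acLDL and at 1008, 1246, 1474 and 1316 without it. Its log2 change was -1.99 (SE 0.90), and -0.05 with the covariate. Tpp1, a tripeptidyl peptidase, was at 486, 225, 223 and 302 against 435, 486, 441 and 444, so control values were close together and 3 acLDL values lay below them. Lgmn, the cysteine protease legumain, was at 251, 0, 43.9 and 56.5 against 66.4, 533, 359.9 and 231. Here control library 1 was also low. Acp5, the tartrate-resistant acid phosphatase known from osteoclasts, was at 71.3, 34.6, 0 and 15.2 against 34.6, 97.6, 92.6 and 67.0.

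The remaining 10 tested hydrolases had log2 changes between -0.71 (Gusb, beta-glucuronidase) and 0.49 (Acp2, an acid phosphatase), and none had an unadjusted p under 0.05. Gla, the alpha-galactosidase, spanned 246 to 379.9 in acLDL libraries and 322 to 367 in control ones. Man2b1, which trims mannose, ranged from 1912 to 2757 and from 2573 to 3209. Asah1, the acid ceramidase, ranged from 302 to 581 and from 327 to 440.1, and Ppt1, a thioesterase, from 2590.0 to 4764 and from 2581 to 3242. Galc, Neu1, Ids and Arsb had log2 changes of 0.06, -0.15, 0.11 and -0.18. The untested Arsa, Gaa and Naglu were at most 12.6 in any acLDL library and at most 34.0 in any control.

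The activator and companion proteins spanned the widest range of log2 changes of the roles, from -2.59 to 1.27. Psap encodes prosaposin, the precursor of the saposins that help hydrolases reach lipids (chromosome 10, 60277627 to 60302597, plus strand). It was at 50746, 6162, 473 and 15230.0 with acLDL and at 35898, 41650.5, 44278 and 45241 without it. Library 1 of the acLDL group was above every control and the other 3 were below every control. The log2 change was -2.59 (SE 1.18, limma's adjusted p = 0.298), -0.07 with the covariate and -0.58 without acLDL libraries 2 and 3. Grn encodes progranulin, which is cut into granulins in the lysosome and binds prosaposin (chromosome 11, 102430315 to 102437048, plus strand). Its values were 14082, 60398, 74627 and 41714 with acLDL and 21184, 13270.4, 16418 and 17148 without it, so the libraries lowest in Psap were highest in Grn. The log2 change was 1.27 (SE 0.47, limma's adjusted p = 0.298), 0.25 with the covariate and 0.53 without acLDL libraries 2 and 3. Without acLDL library 1 it was 1.77 for Grn (limma's adjusted p = 0.022) and -3.55 for Psap (limma's adjusted p = 0.039). The difference between the responses of both genes was not tested. Gm2a, the activator that presents gangliosides to hexosaminidase, was nearly level, at 9982, 13852, 10541 and 9998 against 13362, 10119, 9609 and 9501 (log2 change 0.06, SE 0.18).

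**Figure D2:**
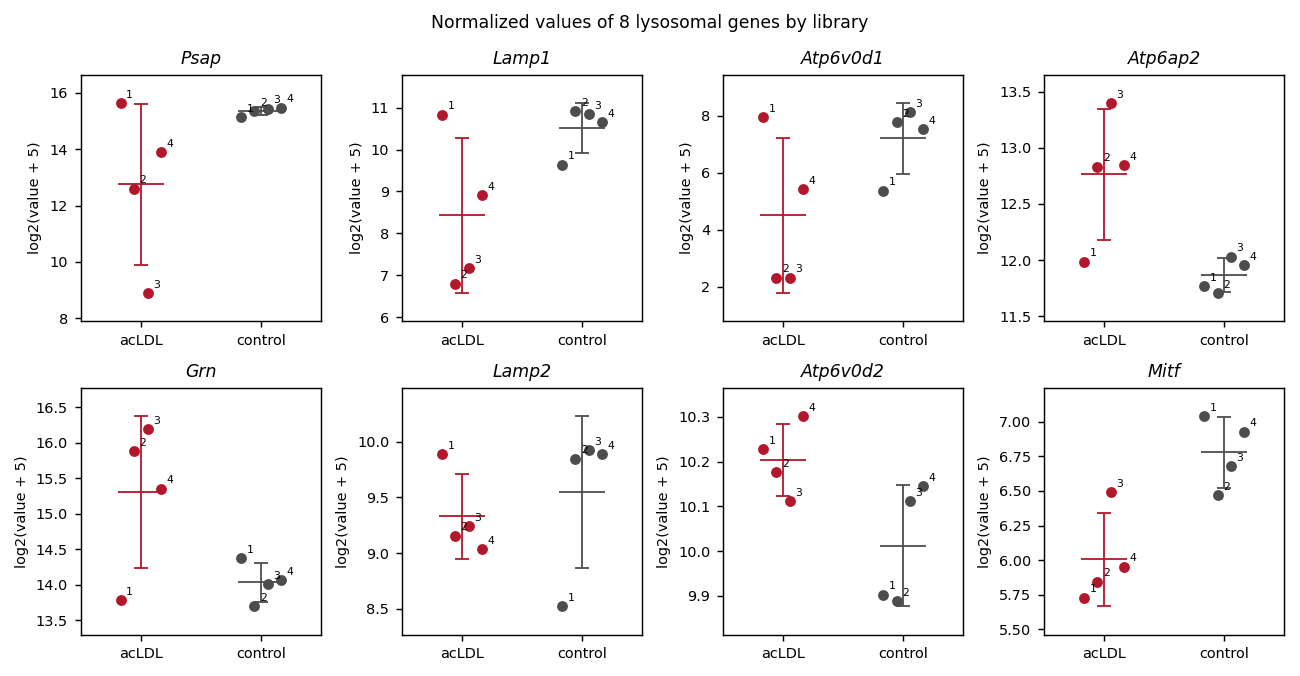
Each panel plots log2(value + 5) of 1 gene against the group, with points for libraries numbered 1 to 4, a bar for the mean and whiskers for 1 SD (n = 4); the axes differ between panels. Psap, Lamp1 and Atp6v0d1 spread widely with acLDL, with library 1 above every control in Psap and within the control range in the other two. Grn and Atp6ap2 show the opposite order, Atp6v0d2 stays within a narrow range, and in Mitf library 1 is the lowest.

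All 6 tested membrane proteins had a lower mean with acLDL, also after median-of-ratios scaling and quantile normalization, while with the covariate Lamp2 (0.19) and Cd63 (0.48) had a higher one. Lamp1 and Lamp2 are the abundant glycoproteins that line the lysosome. Lamp1 was at 1825, 106, 138 and 475 with acLDL and at 792, 1938, 1844 and 1602 without it, a log2 change of -2.09 (SE 0.81, limma's adjusted p = 0.298), and -0.32 with the covariate. Lamp2 was at 942, 565, 601 and 519 against 363, 916, 964 and 943, a log2 change of -0.22 (SE 0.35, limma's adjusted p = 0.724). In both genes acLDL library 1 was close to control libraries 2, 3 and 4. The lowest of the 8 libraries was acLDL library 2 for Lamp1 and control library 1 for Lamp2.

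Laptm5 and Laptm4a, both transmembrane proteins of late endosomes and lysosomes, had log2 changes of different size. Laptm5 was at 56.7, 7.32, 10.7 and 17.6 with acLDL and at 49.9, 64.8, 73.5 and 44.1 without it (log2 change -1.44, SE 0.52). Laptm4a was at 948, 723, 745 and 634 against 1115, 1157, 988 and 869.7 (log2 change -0.44, SE 0.19). The value of Laptm4a moved little between settings, at -0.33 with the covariate and -0.40 without acLDL libraries 2 and 3, while that of Laptm5 went to -0.53 and -0.73. Neither passed limma's threshold (adjusted p = 0.298 for both). Cd63, a tetraspanin of late endosomes, was at 1082, 36.0, 9.11 and 168 against 74.0, 943, 1688 and 889.7, and control library 1 was as low as some acLDL libraries. A listed pseudogene, Cd63-ps, may share reads with it, so its level is uncertain. Mcoln1, a calcium channel of the lysosomal membrane, was at 16.5, 0, 8.06 and 0 against 11.7, 17.9, 8.96 and 14.3, close to the floor of the table.

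The proton pump had 11 lower and 5 higher means among 16 genes, and its V0 sector was lower by more (median -1.31 over 6 genes) than its V1 sector (median -0.25 over 8 genes). The difference between sectors was not tested, and with the covariate the medians were -0.03 and -0.08. In V0, Atp6v0e was at 1293, 26.2, 28.5 and 269 with acLDL and at 445, 1039, 1288 and 1045 without it (log2 change -2.69, SE 1.11, limma's adjusted p = 0.298). Atp6v0c, the subunit that forms most of the rotating ring, was at 1591, 439, 349 and 577 against 930.3, 1500.3, 1300.3 and 1323 (log2 change -1.02, SE 0.43). For Atp6v0c, 2 named pseudogenes are in the annotation, so its level is uncertain. Atp6v0b, a further ring subunit, was at 849, 283, 39.4 and 249.7 against 624, 684, 727 and 732. In these 3 genes acLDL library 1 was above every control and the other acLDL libraries were below every control.

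The d subunit of V0 comes in 2 forms, of which Atp6v0d1 is widely expressed and Atp6v0d2 is known from osteoclasts and some macrophages. Atp6v0d1 was at 243, 0, 0 and 37.7 with acLDL and at 36.5, 215, 276 and 182 without it, with a log2 change of -2.71 (SE 1.26, limma's adjusted p = 0.298) and 0.04 with the covariate. Atp6v0d2 was at 1194, 1152, 1101 and 1257 against 952, 943, 1102 and 1127, with a log2 change of 0.19 (SE 0.15, limma's adjusted p = 0.453) and 0.26 with the covariate. Its acLDL libraries 2 and 3, which were at 0 for Atp6v0d1, lay with the others. Atp6v0a1 ranged from 57.5 to 109.7 and from 41.1 to 125 (log2 change -0.02, SE 0.37).

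In V1, the small subunit Atp6v1f was at 345, 38.0, 0 and 88.9 with acLDL and at 247, 480.0, 329.9 and 293 without it (log2 change -2.69, SE 1.09, limma's adjusted p = 0.298). Atp6v1b2, a subunit of the ATP-splitting head, was at 215, 48.1, 29.1 and 59.1 against 93.1, 221, 240.2 and 201 (log2 change -1.36, SE 0.57). Its partner in the head, the catalytic Atp6v1a, was at 1439, 2506, 2652 and 1803 against 2107, 1342, 1609.6 and 1676 (log2 change 0.29, SE 0.24). Both subunits stand in alternation in the same ring of the protein, while their mRNA values in acLDL libraries 2 and 3 lay on opposite sides of the controls. With the covariate both log2 changes were below 0, at -0.14 for Atp6v1a and -0.19 for Atp6v1b2. The difference between these genes was not tested. Atp6v1h, which ties the sectors' activity to their assembly, was at 139, 0, 0 and 26.9 against 15.4, 99.1, 126 and 165. Atp6v1c1 was at 183, 256, 208 and 162 against 156, 135, 179 and 126 (log2 change 0.42, SE 0.23), and Atp6v1g1 at 1509, 976, 725 and 878 against 1158, 1443, 1385 and 1187 (log2 change -0.39, SE 0.24). Atp6v1d and Atp6v1e1 had log2 changes of 0.25 and -0.12.

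The 2 accessory proteins of the pump had log2 changes of opposite sign. Atp6ap2, also known as the prorenin receptor (chromosome X, 12587801 to 12617049, plus strand), was at 4053, 7284, 10788.5 and 7338 with acLDL and at 3481, 3340.1, 4179 and 3962 without it. The mean was 7366 ± 2751 (SD, n = 4) and 3741 ± 395, a log2 change of 0.90 (SE 0.28, limma's adjusted p = 0.298), with 3 acLDL libraries above every control and library 1 within their range. The direction held under each setting tried for this gene, at 0.40 with the covariate and 0.55 without acLDL libraries 2 and 3. Of the 45 lysosomal genes, 31 kept their direction with the covariate and 40 did without acLDL libraries 2 and 3. Atp6ap1 was at 54.1, 0, 0 and 11.1 against 25.2, 35.5, 65.4 and 31.7, a log2 change of -1.76 (SE 0.80), and -0.14 with the covariate.

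**Figure D3:**
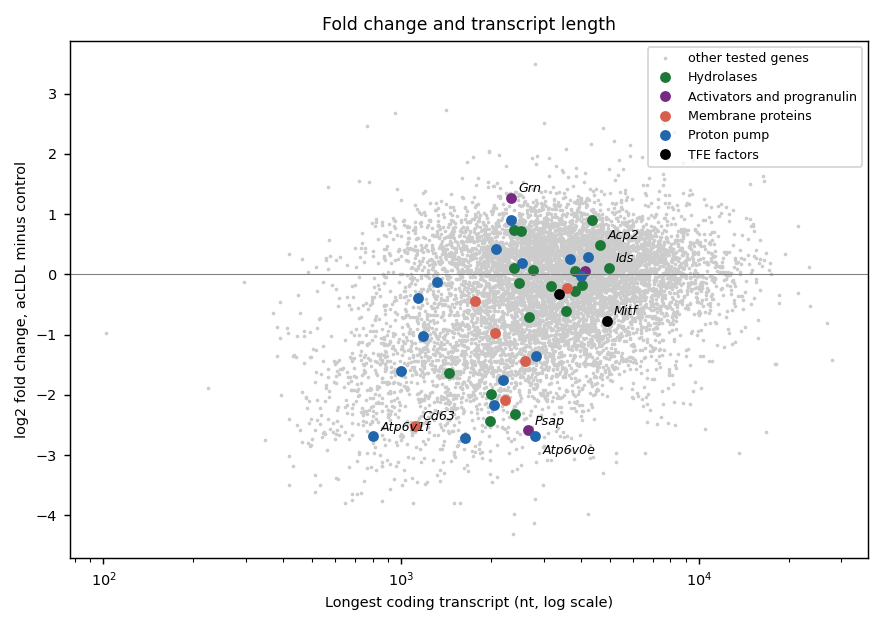
The log2 change of every tested gene with a known transcript length (grey) and of the lysosomal genes (coloured by role) is plotted against the longest coding transcript in nt on a log axis. Among transcripts under 1500 nt, all 7 lysosomal genes lie below 0, as do most other genes; from 3000 nt on, points lie on both sides of 0.

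Fold changes of the lysosomal genes went with transcript length, as they did across all genes. Under 1500 nt, all 7 lysosomal genes had a lower mean (median -1.60), and so had 975 of 1259 genes in all (median -1.14). Between 1500 and 3000 nt, 15 of 23 were lower (median -0.97), against 1712 of 2889 (median -0.26). At 3000 nt or more, 8 of 15 were lower (median -0.02), against 2421 of 4840. Spearman's correlation across genes was 0.46 over the 45 lysosomal genes and 0.28 over 8988 genes, given as a description since all points share the same 8 libraries. Annotated length did not order the genes fully. Psap (2657 nt), Atp6v0e (2812 nt) and Grn (2340 nt) have similar annotated lengths and log2 changes of -2.59, -2.69 and 1.27. These lengths are of the longest of 5, 5 and 4 coding transcripts, and which of them the cells expressed was not tested. With the covariate, 19 of the 45 had a higher and 26 a lower mean, from -1.14 for Smpd1 to 0.63 for Galc, and 1 gene, Mitf, had an unadjusted p under 0.05, against 4.64% of all genes. The groups overlapped in the index through acLDL library 1 alone, so the covariate may also take out a difference between the groups.

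**Figure D4:**
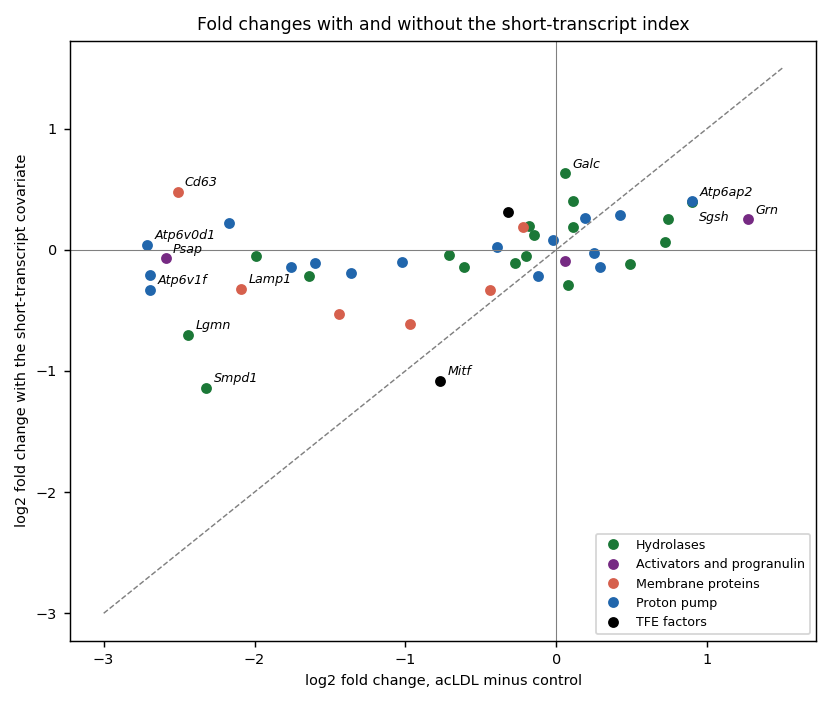
Each point is a lysosomal gene, with its log2 change as fitted with the group alone on the x axis and with the short-transcript index as a covariate on the y axis; the dashed line marks equal values. Most points lie near 0 on the y axis whatever their x value, while Mitf lies below the dashed line at -0.77 and -1.08.

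Further genes of the pathway, 83 symbols in 5 lists, were read from the same fit, and 72 were tested. None passed limma's threshold, 5 higher and 5 lower ones had an unadjusted p under 0.05 (16.4% of all genes did), and the median was -0.24. Without acLDL library 1, 16 passed, 4 higher and 12 lower, against 21.7% of all genes. The ranges of the groups did not overlap for 2 of the 72, Dmxl1 and Lamtor1, against 5.64% of all genes. Of 14 further hydrolases, 10 were lower (median -1.02, or -0.13 with the covariate and -0.34 without acLDL libraries 2 and 3), among them Pld3, a nuclease of endosomes, at 121, 9.05, 0 and 32.3 with acLDL and 74.5, 182, 108 and 136 without it. Of 16 further membrane proteins, 10 were higher (median 0.13, or 0.09 with the covariate, -0.07 with array weights and -0.03 without control library 1). Tmem175, an ion channel of lysosomes, was at 175, 547, 695 and 383 against 191, 131, 193 and 193, and Scarb2, the carrier of glucocerebrosidase, at 865, 1789.8, 1978 and 1325 against 956, 776, 952 and 609.

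Of 10 further pump and assembly genes, 8 were lower (median -0.62), and 5 were with the covariate (median -0.05). Without acLDL libraries 2 and 3 the median was -0.30. Dmxl1, a factor of pump assembly, was an exception, at 95.5, 73.7, 143 and 108 with acLDL and at 19.3, 48.2, 60.6 and 64.7 without it, with no overlap (log2 change 1.12, SE 0.39, limma's adjusted p = 0.298), and 1.16 with the covariate. Wdr7 was at 17.3, 10.2, 11.5 and 11.5 against 23.7, 34.1, 30.6 and 16.6. Of 15 sorting genes, 9 were higher (median 0.17), against 6 with the covariate (median -0.04) and 7 without acLDL libraries 2 and 3 (median -0.05). Nagpa, which uncovers the mannose 6-phosphate tag on new hydrolases, was at 88.1, 9.74, 0 and 38.7 against 52.4, 147, 124 and 49.9, and M6pr, a receptor of that tag, at 969, 197, 274 and 357 against 337, 1147, 1102 and 816. Of 17 genes that control TFE factors, 10 were lower (median -0.14), against 5 with the covariate (median 0.05) and 8 after quantile normalization (median 0.06). Without acLDL library 1 the median was -0.40. Lamtor1, which anchors the Ragulator complex to the lysosome, was at 503, 668, 879.9 and 699 against 466, 394, 493 and 447, again with no overlap (log2 change 0.58, SE 0.21, limma's adjusted p = 0.298), and 0.30 with the covariate. Its partner Lamtor5 was at 267, 35.8, 31.2 and 94.1 against 134, 304, 267 and 209.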

How the data were processed

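Each gene symbol has 1 value per library in the deposited table, a normalized signal made by the authors. The labels' protocols name RNeasy columns for extraction and a Lexogen QuantSeq kit, which reads 3' ends, although the series' text names 5' ends. The submitters' processing notes list bcl2fastq 2.20, kallisto and mm10 (GRCm38). Annotation, filters and scaling are not stated there. The signal is not whole and its lowest value above 0 is 5.0, so depth is unknown, counts could not be used and no counting interval was computed.

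The 10091 of 11756 genes that reached 10 in 4 or more libraries were tested with limma 3.58.1 in R 4.3.3 on log2(value + 5), with variance trend, robust moderation and the group as the only term, with Benjamini-Hochberg adjustment over all of them (threshold 0.05). The fit was tested on simulated data with independent noise of the same SD for every gene, taken from the control libraries. That setting lacks the wider spread and the index differences of the acLDL libraries, so it does not show how the fit behaves with them. Lengths and coordinates came from GENCODE release 21 for mouse (longest coding transcript; 86.2% of symbols had one), and promoters from RefSeq. Every member may be named; values in every library are given for TFE factors, preset pairs and up to 5 genes with the smallest p per role, and of each other list for 2 genes, except a further hydrolase that is not reported here. Fuca1, Lgmn, Acp5 and Atp6v1a were shown in addition after their values were seen. The members, lists and alternatives were chosen with earlier results of these data known. Alternatives were other pseudocounts (1 and 20), filters, scalings, covariates, array weights and left-out libraries.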

Additional observations from a re-analysis of the deposited data

Results flagged for a closer look

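In each of the 90 groups of 4 library values of the 45 tested genes, the gap of the highest or lowest library to its nearest neighbour was set against the range of the group by Dixon's criterion, and 6 groups were marked. Chance marks about 1 group in 20. Smpd1 was at 31.1 in acLDL library 1, far above the other 3, which were listed at 0. Sgsh was at 59.1 in the same library, far below the other 3. Gm2a was at 13852 in acLDL library 2 and Ppt1 at 4764 in acLDL library 4, both high. In control library 1, Gusb was at 388 and Lamp2 at 363, both low. The short-transcript index set acLDL library 1 apart from the other acLDL libraries and was lowest among controls in control library 1, and its part in these values was not tested.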

How the results depend on the processing

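The limits of these results are the spread among the acLDL libraries, the unknown depth and the floor of 5.0 in the table, below which changes cannot be seen. Across all genes, 0 passed limma's threshold as reported, 1 after quantile normalization, 1957 with array weights and from 0 to 2190 when 1 library was left out. Of the lysosomal genes, 0 passed as reported, 20 with array weights and from 0 to 21 when 1 library was left out, and each of the 21 was called without acLDL library 1. Of the 20 called with array weights, 16 were among these 21. The median log2 fold change of -0.32 was -0.05 with the short-transcript covariate, and the cause of these differences was not tested. None of the 45 lysosomal genes changed direction with pseudocounts of 1 or 20, without the filter, or with median-of-ratios scaling.

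The deviations of same-numbered libraries from their group means correlated at -0.553, -0.21, -0.281 and 0.034. Libraries of both groups also differed along the short-transcript index. These correlations therefore cannot tell whether equal replicate numbers mark a shared animal or culture. With the replicate block, 0 genes and 0 lysosomal genes passed, and limma's smallest adjusted p among the lysosomal genes was 0.483 in place of 0.298.

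The hydrolase median was 0.06 over genes above 0 in all 8 libraries. The activator median was -0.09 after quantile normalization, -0.07 with the covariate, -0.08 without acLDL libraries 2 and 3, and -0.05 to 0.17 when 1 library was left out. Single genes that changed sign did so as follows, with causes not tested. Quantile normalization gave Arsb 0.22, Gm2a -0.09, Atp6v0a1 0.30 and Tfe3 0.05. With the covariate, the values were Arsb 0.20, Asah1 -0.29, Neu1 0.12, Acp2 -0.12, Gm2a -0.09, Lamp2 0.19, Cd63 0.48, Atp6v0a1 0.08, Atp6v0d1 0.04, Atp6v1a -0.14, Atp6v1d -0.03, Atp6v1g1 0.02, Atp6v1h 0.22 and Tfe3 0.31. Array weights gave Asah1 -0.08 and Ids -0.11. Without acLDL libraries 2 and 3 together, the values were Asah1 -0.32, Gm2a -0.08, Atp6v0a1 0.11, Atp6v1a -0.05 and Atp6v1d -0.03. When 1 library was left out, the ranges were -0.07 to 0.24 for Asah1, -0.32 to 0.10 for Neu1, -0.11 to 0.19 for Ppt1, -0.17 to 0.43 for Galc, -0.05 to 0.20 for Ids, -0.05 to 0.17 for Gm2a, -0.27 to 0.22 for Atp6v0a1 and -0.59 to 0.01 for Tfe3.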
